A study of Mus musculus with 14 samples.

Results

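The comparison described here is the effect of TAK-418 in mice that carry 1 trapped copy of Kmt2d. Hippocampal RNA of 3 treated mutants was set against that of 3 vehicle mutants, which are 6 of the 14 libraries of the series. Both mutant groups were KMT2D+/bGeo, that is heterozygous for a beta-geo allele of Kmt2d, on the C57BL6 strain. Treated mice received TAK-418 at 1 mg/kg/day by oral gavage in methylcellulose, vehicle mice received methylcellulose alone. Daily dosing ran for 2 weeks from an age of 2 weeks. Tissue came from mice of 30 days. The remaining 8 libraries, 3 from wild types on vehicle and 5 from wild types on TAK-418, are used for the spread between libraries and for the same drug in the other genotype. The labels do not say whether a library is 1 animal, so p-values measure the spread between these libraries. No deposited table holds the mutant pair directly.

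KMT2D is a methyltransferase that places methyl groups on lysine 4 of histone H3 at enhancers and promoters, and loss of 1 copy causes Kabuki syndrome in humans. LSD1, the product of Kdm1a, removes mono- and dimethyl marks from the same lysine, usually as the catalytic subunit of the CoREST repressor complex. REST brings this complex to RE1 elements of neuronal genes, and GFI1 proteins bring it to others. TAK-418 inhibits LSD1. In the dentate gyrus of the hippocampus, new granule neurons continue to be added after birth.

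Relative depth was worked out from the step between products of abundance and length of single-exon transcripts. In the treated mutants it was 59.7, 59.97 and 47.5 M (1 M is 1000000 reads or fragments). In the vehicle mutants it was 40.3, 49.4 and 46.1 M. It was 35.1 to 56.1 M in 7 of the 8 wild-type libraries. The remaining one, replicate 1 of the treated wild types, stood apart at 168 M. The treated mutants had 38691 to 41228 assembled transcripts and the vehicle mutants 36211 to 38633, so the groups did not overlap. An exact two-sided permutation test gave p = 0.1, the smallest that 3 against 3 libraries allow, and an adjusted p of 0.3 over 6 library measures. Vehicle mutant replicate 1 held far more choroid plexus RNA than the others, with the 18 marker genes summing to 5959 against 92.4 to 1125 in the other 5 mutant libraries. Female-specific Xist RNA was listed in 1 of 3 libraries in each mutant group, treated replicate 2 and vehicle replicate 1. Markers of the labelled tissue were present: all 14 genes of the CA field list and all 12 of the mature granule cell list were listed in all 6 mutant libraries.

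Neither the mutated gene nor the drug target passed the test between treated and vehicle mutants. Values are scaled abundances, that is the authors' transcript abundances summed per gene and scaled between libraries, which behave like a length-normalized expression level. Kmt2d stood at 14.6, 13.4 and 9.38 in the treated mutants and at 10.7, 10.8 and 14.5 in the vehicle mutants. The ranges overlapped, and the log2 difference was 0.04 (SE 0.17, adjusted p = 1, exact permutation p = 0.9). Vehicle wild types stood at 13.8 to 14.3. Where the beta-geo cassette sits is not given in the sources used here, so this level does not check the allele. Kdm1a stood at 34.1, 34.3 and 34.3 in the treated and 30.02, 35.04 and 33.4 in the vehicle mutants, a log2 difference of 0.06 (SE 0.05, adjusted p = 1, exact permutation p = 0.6).

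Kdm1a has a neuronal exon of 12 bases whose inclusion changes the enzyme's behaviour in neurons, and it is shown because the drug acts on this protein. In GRCm38 it lies in the coding sequence at chr4:136563438-136563449 on the minus strand. The capitals mark the 12 bases, with 30 coding bases on each side.
Kdm1a exon: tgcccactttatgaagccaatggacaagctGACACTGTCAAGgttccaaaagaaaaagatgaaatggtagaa
None of the 38 Kdm1a transcripts assembled over the 14 libraries held this exon as an exon of its own. In 30 of them an intron ran across it, and in 8 a longer exon covered it. The share of transcripts with the exon could therefore not be compared between treated and vehicle mutants.

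Of 16568 genes tested, 1 was called in treated against vehicle mutants at an adjusted p under 0.05 with limma, which is 0.00604% of the genes. It was Pcdhb13, a clustered protocadherin that acts in neuronal self-recognition. At an unadjusted p under 0.05 there were 728 genes (4.39%), 415 of them higher in treated mutants and 313 lower. The 3 treated and 3 vehicle values did not overlap for 1356 genes (8.18%), 751 with treated libraries higher (4.53%) and 605 with treated libraries lower (3.65%). Scaling by the upper quartile changed that split to 957 higher and 503 lower. The median difference over all genes was 0.0017 on the log2 scale, and 322 genes differed by more than 1. With 1 of the 14 libraries left out at a time, 1 to 8 genes were called, the most without vehicle mutant replicate 1, and Pcdhb13 was among them except where a treated mutant was left out.

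Pcdhb13 was assembled in the 3 treated mutants, at 2.29, 1.71 and 1.53, and was listed at 0 in all 11 other libraries. It passed the filter of 3 libraries through the treated mutants alone, so the adjusted p of 7.34e-05 describes where it was listed and is no independent evidence of a difference. Its fitted log2 difference of 1.62 (SE 0.11) is set by the pseudocount, and no fold is given against a group at 0. The transcripts were single exons of unstated strand, so the gene leaves the test when only multi-exon transcripts are used. The adjusted p was 0.0558 when the 6 mutant libraries were fitted alone. Leaving out any treated library took its number of listed libraries under the minimum of 3. The authors' deposited tables pool it with Pcdhb14, at 3.60 in vehicle and 3.76 in treated mutants. Of the 18 beta protocadherins listed in any library, 10 passed the filter and none was listed in all 6 mutant libraries. The median log2 difference of those 10 was 0.63, but it was 0.00989 without the filter and 0.105 with 10 times the pseudocount, so it is no measure of the family. Pcdhb8 stood at 1.78, 1.90 and 0.571 in the treated mutants and at 0 in the 3 vehicle mutants. Reads of such near-identical genes may be divided between them in ways the files do not state.

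None of the genes with a value in all 6 mutant libraries was called, where the smallest adjusted p was 0.118. Fitted on the 6 mutant libraries alone, 16 genes were called, among them Timm23 (adjusted p = 0.00236), which is listed in all 6, and not Pcdhb13. The 16 also include Dohh, listed only in the treated mutants of these 6, and Dgcr2 and Nkx2-1, listed only in the vehicle mutants. These passed that fit's filter through the group that listed them, so their calls are no independent evidence. By a rule on the smallest unadjusted p among genes listed in all 6 whose groups did not overlap, the 10 genes highest and the 10 lowest in treated mutants are described next. Their adjusted p ranged from 0.127 to 0.542 for the higher and from 0.118 to 0.543 for the lower genes. Of the 13783 genes listed in all 6, 615 had non-overlapping higher values (4.46%) and 559 lower values (4.06%). The 20 genes are the extremes of a group of this size, so their values describe them and their order carries no test.

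**Figure D1:**
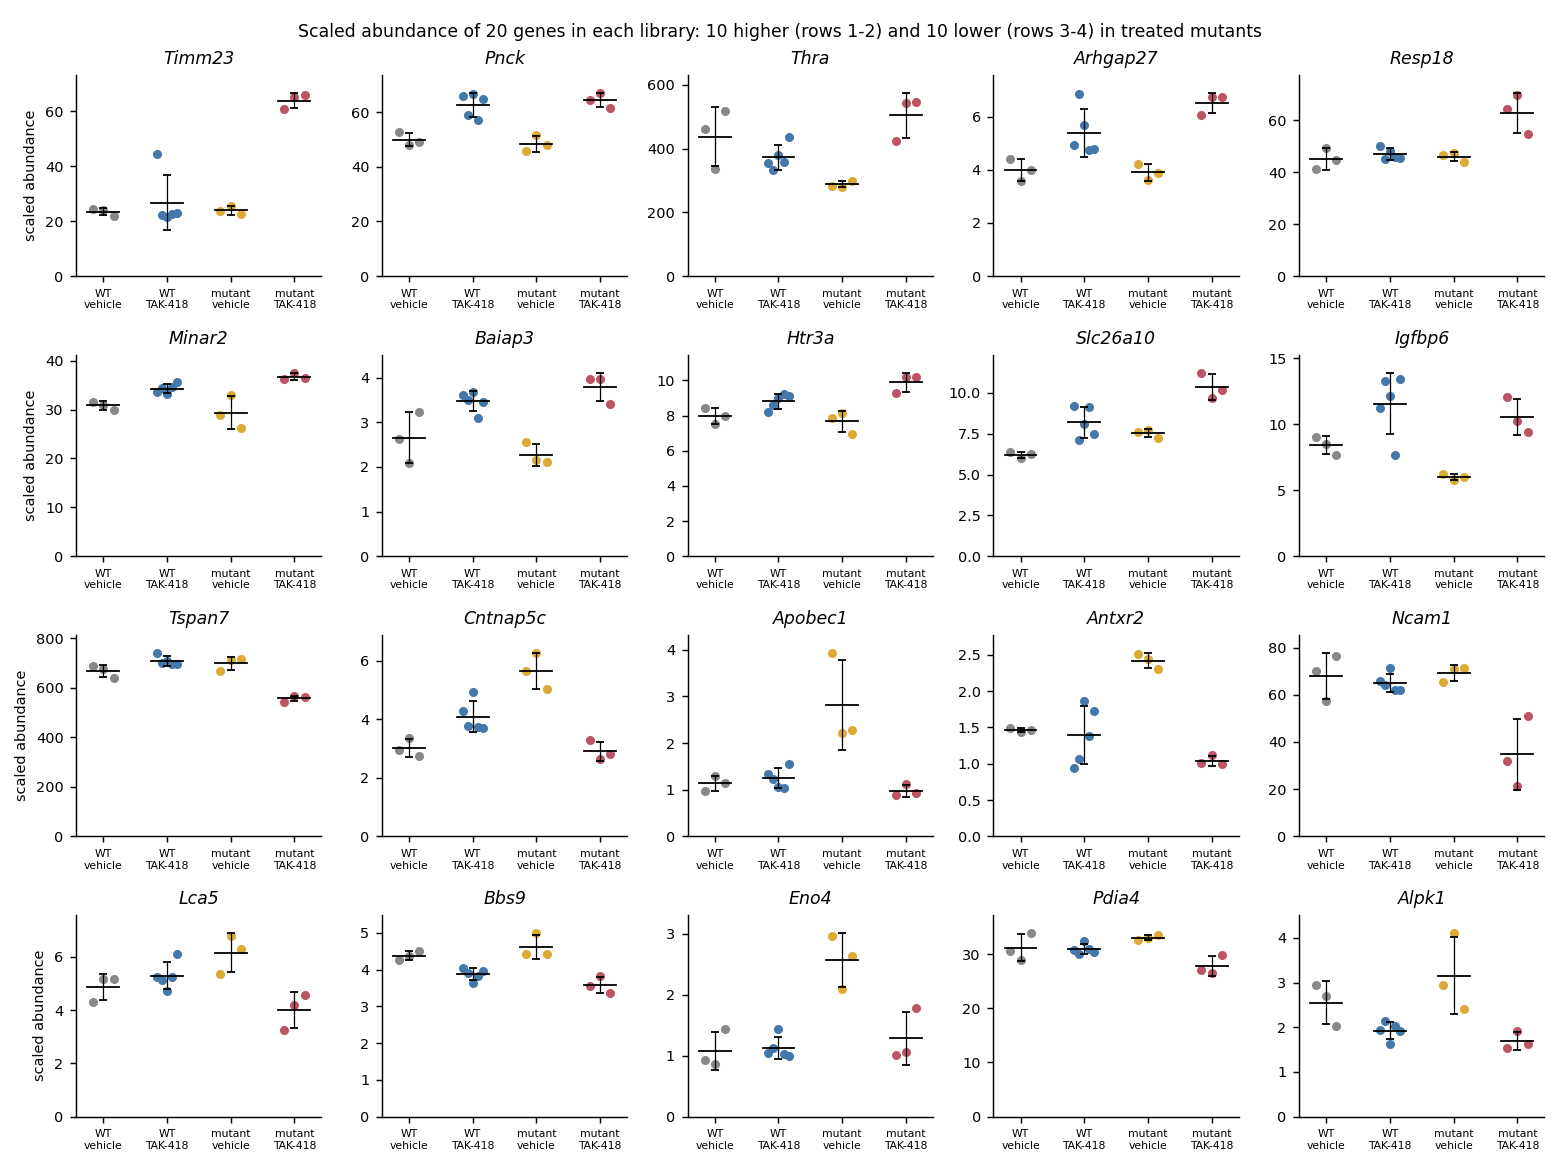
Scaled abundance (linear, from 0) of the 20 genes in every library, by group, with a horizontal line for the mean and a bar for the SD (n = 3, 5, 3 and 3 from left to right). The 3 treated mutants lie above the 3 vehicle mutants in the top 10 panels and below them in the bottom 10, by construction of the choice. The wild-type TAK-418 library that stands apart for Timm23 is replicate 1.

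Among the higher genes, Resp18, which encodes a protein of secretory granules (chr1:75272199-75278415, minus strand), stood at 64.2, 69.9 and 54.7 in the treated and 46.6, 47.3 and 43.9 in the vehicle mutants. The groups averaged 62.9 ± 7.69 and 46.0 ± 1.79 (SD, n = 3), a log2 difference of 0.44 (SE 0.09, adjusted p = 0.288). Vehicle wild types averaged 45.2 ± 4.16 and treated wild types 47.0 ± 2.18 (SD, n = 3 and 5), so treated mutants averaged above the other groups. The difference between genotypes was called for none of the 10 higher genes (limma adjusted p of 0.622 to 0.981). Baiap3, a C2-domain protein of vesicle trafficking (chr17:25242659-25256364, minus strand), stood at 3.97, 3.96 and 3.41 against 2.55, 2.145 and 2.1001. Its log2 difference was 0.57 (SE 0.12, adjusted p = 0.334). Htr3a, the serotonin-gated channel subunit of a class of cortical and hippocampal interneurons (chr9:48899213-48911099, minus strand), stood at 9.29, 10.2 and 10.2 against 7.87, 8.15 and 6.98, a log2 difference of 0.34 (SE 0.07, adjusted p = 0.385). Pnck, a calcium/calmodulin-dependent kinase of the brain (chrX:73655994-73660117, minus strand), stood at 64.6, 66.9 and 61.7 against 45.9, 51.6 and 47.9. Treated wild types, at 57.2 to 66.8, also stood above vehicle wild types at 48.0 to 52.7.

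The other higher genes were Igfbp6, an insulin-like growth factor binding protein, with 12.1, 10.3 and 9.39 against 6.25, 5.78 and 5.99, and Slc26a10, a member of the anion transporter family, with 11.2, 9.69 and 10.2 against 7.58, 7.76 and 7.26. Arhgap27, a GTPase activating protein, stood at 6.07, 6.73 and 6.75 against 4.23, 3.60 and 3.87. Minar2 stood at 36.2, 37.5 and 36.4 against 28.8, 33.0 and 26.3. Igfbp6 differed by 0.73 on the log2 scale, Arhgap27 by 0.63, Slc26a10 by 0.42 and Minar2 by 0.32. Thra, the thyroid hormone receptor alpha, and Timm23, a subunit of the mitochondrial inner membrane import channel, are described with the transcript structures.

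The promoters of Resp18 and Baiap3 are shown because these genes kept their direction under all measures described below and have an entry in the RefSeq promoter table (GRCm38.p6), chosen after their values were seen. Each is the 250 bases before the start on the minus strand, chr1:75278416-75278665 and chr17:25256365-25256614. Capitals mark the only match found for the words searched on both strands, which did not overlap each other.
Resp18: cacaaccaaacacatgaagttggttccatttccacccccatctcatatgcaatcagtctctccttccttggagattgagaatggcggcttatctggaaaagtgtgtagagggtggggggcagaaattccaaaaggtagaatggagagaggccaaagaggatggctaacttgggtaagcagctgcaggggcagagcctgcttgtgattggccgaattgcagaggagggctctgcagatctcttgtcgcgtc
Baiap3: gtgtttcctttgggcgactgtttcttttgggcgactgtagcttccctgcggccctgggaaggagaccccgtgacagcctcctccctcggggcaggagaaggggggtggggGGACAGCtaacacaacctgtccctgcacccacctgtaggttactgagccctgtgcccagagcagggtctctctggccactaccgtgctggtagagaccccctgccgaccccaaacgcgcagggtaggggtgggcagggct
The words were 2 parts of the RE1 element, TTCAGCACC and GGACAGC, a GFI1-type word, AATCNNNGC, and the cyclic AMP response element, TGACGTCA. Baiap3 held GGACAGC, a word found in 5.31% of the 32536 promoters of this length. The other words occur in 0.301%, 8.87% and 1.56% of promoters and were in neither of these windows.

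Among the lower genes, Cntnap5c, a neurexin-like adhesion protein (chr17:57769570-58410355, plus strand), stood at 3.28, 2.66 and 2.81 in the treated and 5.65, 6.26 and 5.05 in the vehicle mutants. Its log2 difference was -0.78 (SE 0.12, adjusted p = 0.118), and vehicle wild types averaged 3.02 ± 0.309 (SD, n = 3). Apobec1, a cytidine deaminase that edits RNA (chr6:122577792-122602444, minus strand), stood at 0.885, 1.13 and 0.920 against 3.93, 2.22 and 2.29, with vehicle wild types at 1.14 ± 0.158 (SD, n = 3). Its log2 difference was -0.96 (SE 0.16, adjusted p = 0.141). Eno4, an enolase family member (chr19:58943425-58971421, plus strand), stood at 1.01, 1.06 and 1.79 against 2.97, 2.096 and 2.64, with vehicle wild types at 1.08 ± 0.318 (SD, n = 3). By abundance, vehicle mutants averaged above both treated mutants and vehicle wild types for these genes. The authors' deposited values for Cntnap5c were 5.06 in vehicle mutants, 4.94 in treated mutants and 4.63 in vehicle wild types. The comparisons of treated mutants and of wild types with vehicle mutants share those 3 libraries.

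Lca5, which encodes lebercilin of the ciliary axoneme, stood at 3.27, 4.21 and 4.57 against 5.37, 6.80 and 6.31. Bbs9, a subunit of the BBSome that carries proteins into cilia, stood at 3.55, 3.83 and 3.37 against 4.42, 4.99 and 4.43. Pdia4, a protein disulfide isomerase of the endoplasmic reticulum, stood at 27.1, 26.4 and 29.8 against 32.6, 32.9 and 33.6. Their log2 differences were -0.53, -0.30 and -0.24. Antxr2, an anthrax toxin receptor that binds matrix proteins, averaged 1.04 ± 0.067 against 2.42 ± 0.105, and Alpk1, an innate immune kinase, 1.70 ± 0.196 against 3.15 ± 0.865 (SD, n = 3). Ncam1, the neural cell adhesion molecule, was spread widely among treated mutants, at 31.8, 21.4 and 51.2 against 65.2, 71.0 and 71.1.

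Part of these differences depended on how a gene's value was measured. If the abundance is divided by length, which no source states, multiplying each transcript's abundance by its assembled length undoes that division. For single-exon transcripts, 93.6% to 98.5% of the small products checked per library lay near multiples of the step behind relative depth. That step was fitted to the same products. The product of abundance and length covers only the assembled bases, so it can still change with where a transcript's ends are assembled. By this measure 8 of the 10 higher genes kept the sign and 8 still had non-overlapping groups, while of the 10 lower genes 8 kept the sign and 3 did not overlap. The authors' deposited tables give pooled values for the 2 mutant groups, each beside the same wild-type vehicle group. They were normalized separately, and the shared group differed by 0.714% between them. Of the higher genes, 8 had 1 usable locus in those tables and all 8 kept the sign, 5 of them with a log2 ratio over 0.2. Another 2 of the 8, Timm23 and Thra, were below 0.1, each at 0.013. Of the lower genes, 10 had 1 such locus, 8 kept the sign, 4 passed 0.2 in size and 4 were below 0.1 in size. All these measures come from the same libraries and are not independent.

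**Figure D2:**
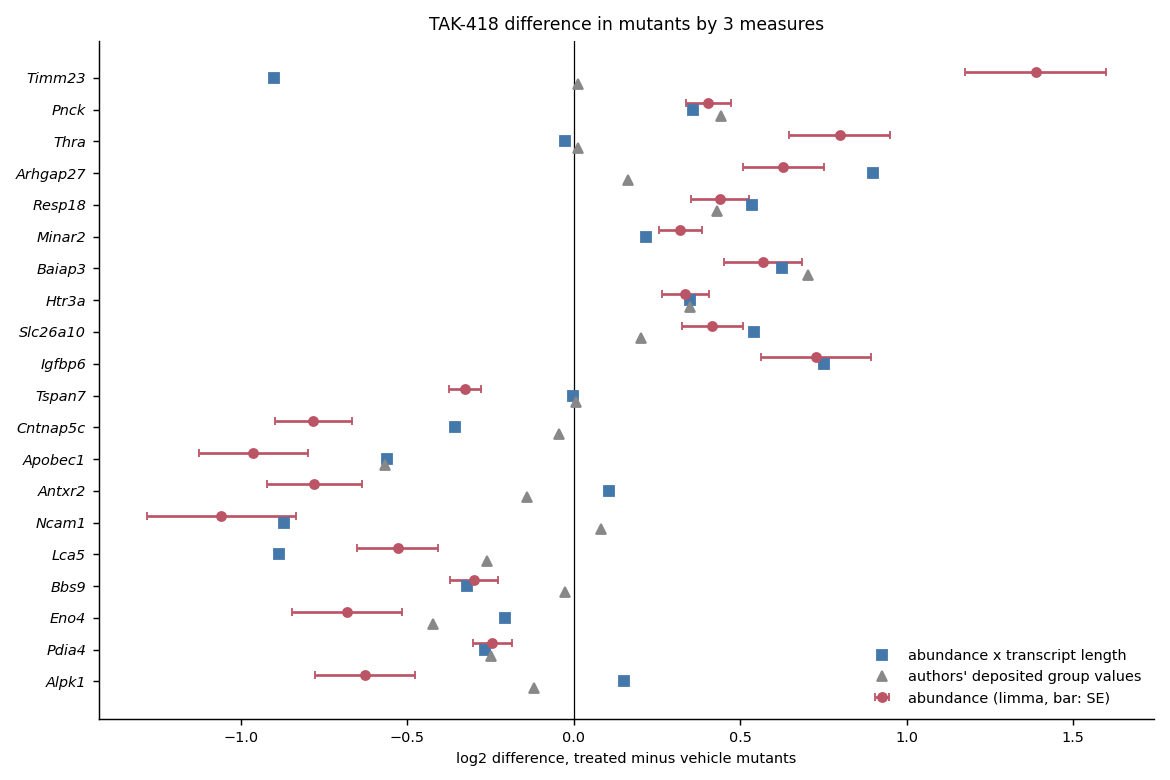
Difference between treated and vehicle mutants (log2) for the 20 genes by abundance with its SE (circles), by abundance times assembled length (squares) and from the authors' deposited group values (triangles, no error; absent for 2 genes). The 3 symbols lie together for Pnck, Resp18, Baiap3, Htr3a and Pdia4 and apart for Timm23, Thra, Tspan7, Antxr2 and Ncam1.

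In the authors' deposited tables, Resp18 had 48.3 in vehicle and 65.5 in treated mutants, Pnck 46.4 and 63.6, Baiap3 2.73 and 4.47, and Htr3a 5.93 and 7.60. Apobec1 had 1.31 and 0.891, Eno4 1.05 and 0.788, Lca5 5.42 and 4.55 and, in a locus shared with Mir704, Pdia4 22.6 and 19.2. In contrast, the authors' deposited tables gave Tspan7 594 and 601, Thra 380 and 386, Cntnap5c 5.06 and 4.94, and Ncam1 47.9 and 51.1. Across 8816 single-gene loci with an authors' value over 1, the deposited ratio was above 0 for 52.8%. It was above 0 for 353 of the 390 genes with non-overlapping higher values (90.5%), with a median log2 ratio of 0.09 where the abundance gave 0.15. It was below 0 for 298 of the 340 genes with non-overlapping lower values (87.6%), with a median of -0.09 where the abundance gave -0.20. Over the genes listed in all 6 mutant libraries, 277 of 615 higher (45.0%) and 211 of 559 lower genes (37.7%) did not overlap in the same direction by abundance times length.

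Tspan7, a tetraspanin of neurons on the X chromosome, had the clearest change in assembled structure. Its abundance was 544, 565 and 561 in treated and 668, 711 and 717 in vehicle mutants, a log2 difference of -0.33 (SE 0.05, adjusted p = 0.118). By abundance times length the log2 difference was -0.00062. In the 11 other libraries the most abundant transcript had 8 exons. In all 3 treated mutants it had 7, and its last exon began at chrX:10595279 and ran on through the last intron, chrX:10595355-10595629, of 275 bases. Transcripts with that intron inside an exon made up 95.9%, 96.6% and 94.8% of the Tspan7 abundance over the intron in treated mutants and 0% in the 11 others. In the annotation 1 of the 3 Tspan7 transcripts has an exon over the intron. The sequence shows that the intron follows the stop codon, in capitals, by 7 bases, so the coding sequence is the same in both forms (chrX:10595315-10595354, plus strand).
Tspan7: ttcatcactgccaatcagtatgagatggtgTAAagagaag
The 8-exon intron chain was listed at 0 in all 3 treated mutants and at 673, 705 and 719 in the vehicle mutants. It was called lower by limma (adjusted p = 9.69e-19). With the treated mutants at 0 the pseudocount sets the size of this difference, so the p describes where the chain was listed. The 7-exon chain stood at 524, 547 and 530 in the treated mutants and at 0 in all 11 others, so it passed the filter through the treated mutants alone and its p is not given. The adjusted p of the gene's abundance was 0.0378 without wild-type TAK-418 replicate 1 and 0.0459 without vehicle mutant replicate 1. Relative depth overlapped between the mutant groups, and its part in this assembly was not tested.

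Timm23 stood at 60.7, 65.2 and 65.8 in treated and 23.8, 25.4 and 22.5 in vehicle mutants, a log2 difference of 1.39 (SE 0.21, adjusted p = 0.127). Its most abundant transcript had 7 exons in every library. The 3′ exon was 101 bases long in the 3 treated mutants and in wild-type TAK-418 replicate 1 and 2848 bases in the other 10. By abundance times length the log2 difference reversed to -0.90, and the authors' deposited tables gave 59.8 and 60.8 for a locus with Gm23946. Without wild-type TAK-418 replicate 1, which stood at 44.5 while the other treated wild types stood at 21.6 to 22.9, the adjusted p of Timm23 was 1.09e-06. Thra stood at 423, 544 and 547 against 284, 281 and 299, and its mean assembled length was 1752, 1316 and 1295 against 2517, 2526 and 2506 bases. By abundance times length its log2 difference was -0.03.

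**Figure D3:**
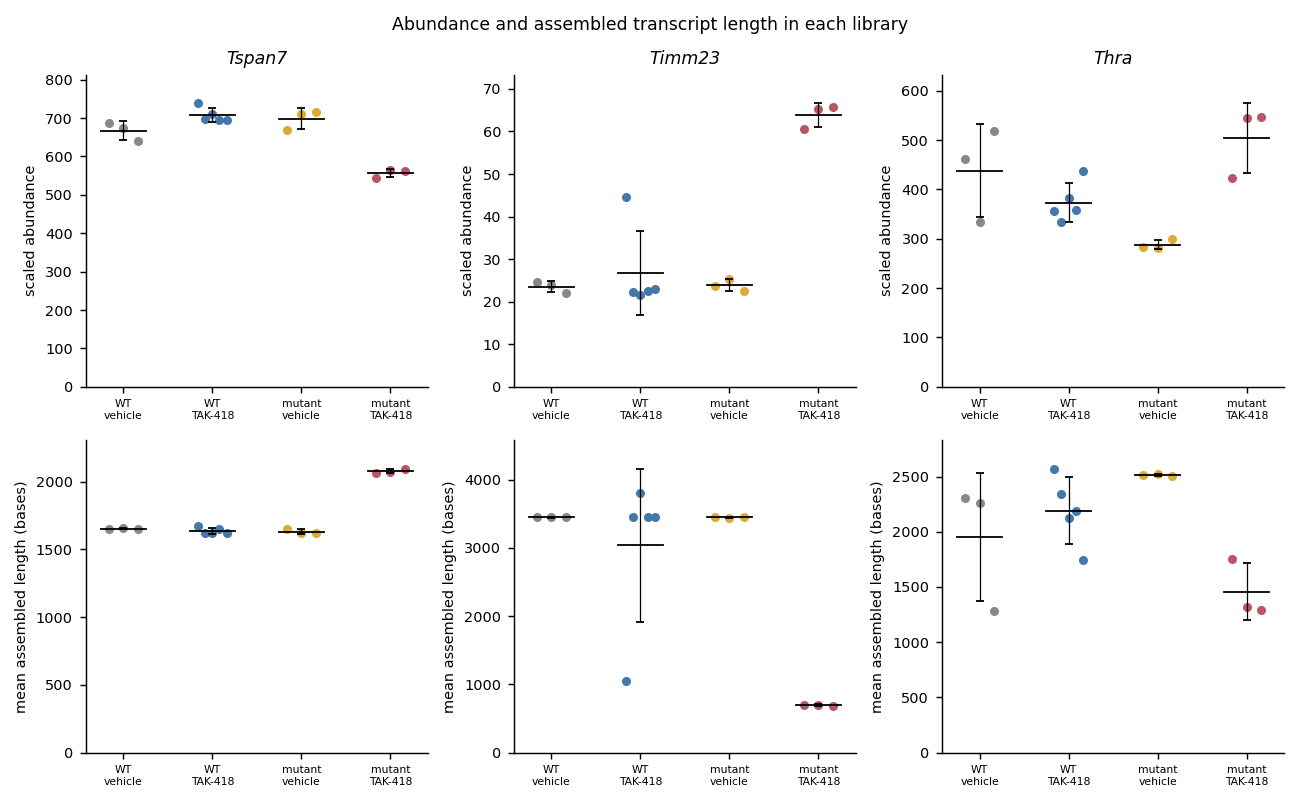
Scaled abundance (top) and abundance-weighted mean length of the assembled transcripts in bases (bottom) of Tspan7, Timm23 and Thra in every library, with mean and SD per group (n = 3, 5, 3 and 3 from left to right). The treated mutants are longer for Tspan7 and shorter for Timm23 and Thra than the vehicle mutants, with abundance moving the opposite way.

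The intron chain of a spliced transcript is the ordered set of its introns. Of 36236 chains tested, 1903 had an unadjusted p under 0.05 (5.25%) and 58 were called (0.16%), 47 higher and 11 lower in treated mutants, in 54 genes. Of these, 44 were listed in 3 of 3 treated and 0 of 3 vehicle mutants, 10 were the reverse and 4 were of neither kind. In all, 45 were in no wild-type library. These 45 passed the filter through 1 mutant group alone, 38 through the treated and 7 through the vehicle mutants, so their calls describe where they were listed and are no independent evidence. The same holds for chains of Nhsl1, Skap1, Afdn, Neil2 and Tnni1, listed in the treated mutants, and Pard3, listed in the vehicle mutants. Each was listed in only 1 or 2 wild types and reached 3 libraries through that mutant group. Over all tested chains, 315 were listed in the treated mutants alone (0.869%) and 167 in the vehicle mutants alone (0.461%), counting 3 of 3 against 0 of 3. Without treated mutant replicates 1, 2 or 3, the number called was 24, 36 or 30. None of the 54 genes was called by its sum. Of the 4 chains of neither kind, 3 were listed in all 14 libraries. They were those of Timm23 and Cebpg, higher, and Pnpla8, lower (limma adjusted p = 0.0285, 0.0293 and 0.0364). The remaining chain, in Hook1, stood at 4.52, 3.79 and 3.53 in treated and 0, 0.563 and 0 in vehicle mutants. It stood at 2.98 to 4.71 in treated wild types and at 0 in vehicle wild types. The log2 difference of the Hook1 sum was -0.05. Nmt1, an N-myristoyltransferase, was assembled as 13 exons in the 3 treated mutants, at 67.8, 65.2 and 54.5, and this chain was listed at 0 in all others, while the log2 difference of the gene's sum was -0.06. Iqce, a ciliary signalling protein, had a 22-exon chain at 5.21, 5.01 and 5.45 in vehicle mutants and in all 8 wild types, and at 0 in the treated mutants. Pth1r, the parathyroid hormone receptor, had a 14-exon chain at 2.58, 2.66 and 2.09 in vehicle mutants that was listed at 0 in all other libraries. In a separate fit of the 11847 chains with a value in all 6 mutant libraries, 0 were called by limma and 427 had an unadjusted p under 0.05. The smallest adjusted p of that fit was 0.156, so the 3 called chains listed in all 14 libraries were not called there.

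Whole genes listed in 3 of 3 libraries of 1 mutant group and 0 of 3 of the other numbered 51 for treated (0.272% of 18722 genes with a value) and 13 for vehicle mutants (0.0694%). The treated libraries were deeper on average, and only 2 of the 51 and 0 of the 13 were absent from all wild types. Dohh, which completes hypusine on the translation factor eIF5A, had the highest mean, at 33.6, 36.6 and 37.1 in treated mutants, and it was listed in 7 of the 8 wild types. Dgcr2, an adhesion receptor of the DiGeorge region, stood at 40.2, 35.3 and 18.6 in vehicle mutants, and Nkx2-1, a transcription factor of ventral forebrain interneurons, at 26.2, 11.7 and 12.4. In the authors' deposited tables these loci were at 31.0 and 32.0 for Dohh, 31.0 and 31.6 for Dgcr2, and 0.754 and 0.717 for Nkx2-1, vehicle before treated.

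No listed gene of a chromatin or hippocampal group other than Pcdhb13 was called. The groups are given by counts beside the shares over all genes tested. At an unadjusted p under 0.05, 2.5% of all genes were higher and 1.89% lower. Non-overlapping values were higher for 4.53% and lower for 3.65%. The difference was above 0 for 51.1% of all genes. Of the LSD1 and CoREST complex genes, 16 were tested, with 10 above and 6 below 0 and a median of 0.02, and Snai1, a repressor that recruits LSD1, was lower at an unadjusted p under 0.05 with values under 1 in every mutant library. The H3K4 methyltransferases and COMPASS subunits had 13 above and 7 below 0 with a median of 0.01, and the other H3K4 demethylases 3 above and 4 below. Of 14 RE1 genes that REST represses, 11 were above 0 with a median of 0.04, and 2 had non-overlapping higher values, Vgf and Snap25. Without vehicle mutant replicate 1 the median was 0.0174, with 6 of 14 below 0. The list's median deviation per library was -0.00997, 0.0651 and 0.0154 in treated and -0.0310, 0.0275 and -0.0337 in vehicle mutants, so the groups overlapped. Snap25, the synaptic SNARE protein, stood at 1073, 1035 and 1046 against 972, 999 and 416, with vehicle mutant replicate 3 far below the rest. The authors' deposited tables gave Snap25 819 in vehicle and 862 in treated mutants.

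Among neuronal groups, the neuropeptide precursors had 12 of 15 genes above 0, with a median of 0.13 against 0.0017 over all genes, and 2 higher at an unadjusted p under 0.05. By abundance times length the median was 0.09. The list's median deviation per library was -0.125, 0.147 and 0.179 in treated and -0.0989, -0.0468 and -0.085 in vehicle mutants, so the groups overlapped. Tac1, the substance P precursor, stood at 10.6, 14.2 and 12.4 against 8.59, 8.38 and 9.29, a log2 difference of 0.45 (SE 0.11, adjusted p = 0.543), and its vehicle wild types averaged 10.3 ± 1.41 (SD, n = 3). The authors' deposited tables gave it 7.84 and 9.86. Grp, the gastrin-releasing peptide precursor, stood at 25.5, 24.7 and 21.8 against 18.1, 19.9 and 21.1. Newborn granule neuron genes had 11 of 14 above 0 with a median of 0.07, with Neurog2 higher and Eomes lower at an unadjusted p under 0.05, and mature granule cell genes had 8 of 12 above 0 with a median of 0.04. C1ql2, secreted by mossy fibres, stood at 61.9, 58.8 and 62.5 against 54.8, 51.1 and 57.9. Of the CA field genes, 2 were lower at an unadjusted p under 0.05, of which Wfs1, a CA1 gene of the endoplasmic reticulum, stood at 45.0, 44.8 and 46.9 against 53.0, 53.3 and 62.8. Interneuron genes had a median of -0.02 with Htr3a and Lhx6 higher at an unadjusted p under 0.05. Immediate early genes had 17 of 23 above 0 and a median of 0.08, which ranged from 0.0328 to 0.181 with 1 mutant library left out (lowest without vehicle replicate 2, highest without vehicle replicate 3), and Dusp1 stood at 12.01, 7.34 and 7.02 against 6.39, 6.39 and 6.54.

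Dividing cell, glutamate receptor, GABA-A receptor, synaptic vesicle, circadian clock and thalamus genes had medians between -0.02 and 0.05, and glucocorticoid response genes had a median of -0.05. In glial and vascular groups, none of which had a call, 10 of 12 oligodendrocyte precursor genes, 11 of 13 astrocyte genes and 12 of 16 endothelial and mural genes were below 0, with medians of -0.07, -0.04 and -0.08. In each of these lists the median deviation per library overlapped between treated and vehicle mutants. Myelin genes had a median of -0.00306 and microglia genes of -0.03. Pecam1, an endothelial adhesion molecule, stood at 5.10, 5.81 and 4.87 against 6.33, 6.74 and 5.79. In bulk tissue, fewer cells of a type and less RNA per cell cannot be told apart. Interferon response genes had 8 of 20 above and 12 below 0, and their median of -0.03 turned to 0.05 without vehicle mutant replicate 1. The smallest unadjusted p of the list was that of Ifit3, at 3.99, 3.68 and 3.83 against 2.81, 0 and 0, a log2 difference of 1.73 (adjusted p = 0.57), which was called without vehicle mutant replicate 1. Another 4 had non-overlapping lower values against 3.65% of all genes, among them Oas1a at 0.654, 0.386 and 0.562 against 0.792, 1.54 and 1.84 and Usp18 at 0.826, 1.26 and 0.626 against 2.12, 1.93 and 1.56. All 5 tested blood genes were below 0 with a median of -0.38, which ranged from -0.163 without treated mutant replicate 2 to -0.683 without vehicle mutant replicate 3.

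All 18 choroid plexus genes, 10 of which were listed in all 6 mutant libraries, had differences below 0 with a median of -1.16, but none was called and the groups overlapped for every gene. Transthyretin, Ttr, stood at 592, 9.87 and 20.2 in treated and 4927, 36.4 and 888 in vehicle mutants. The summed level of the 18 genes ranged from 92.4 to 748 in treated and from 120 to 5959 in vehicle mutants. Without vehicle mutant replicate 1 the median was -0.28. The part of this tissue in the differences of other genes was not tested. Mitochondrially encoded genes were not tested, since 1 of the 13 was listed in any library, and the sex-linked genes had a median of 0.01.

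**Figure D4:**
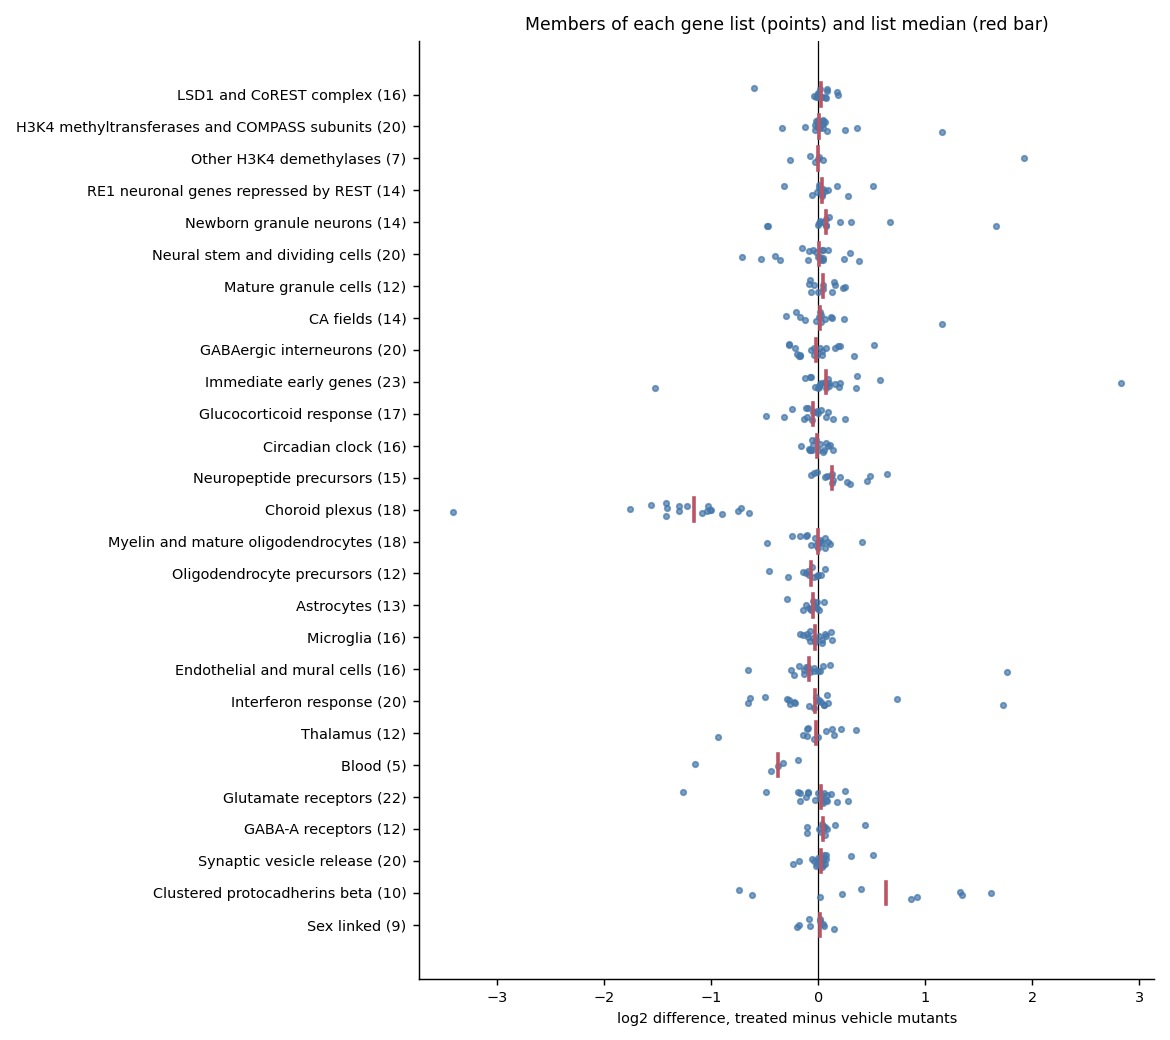
Difference between treated and vehicle mutants (log2) of every tested member of 27 gene lists (points, with the number tested in brackets) and each list's median (red bar). Only the choroid plexus, blood and beta protocadherin lists have medians beyond 0.2 in size.

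The same drug in wild types, 5 treated against 3 vehicle libraries, shares no library with the mutant comparison. It called 1 gene (0.00604%), Tlnrd1 (adjusted p = 0.0493), and 1398 had an unadjusted p under 0.05 (8.44%). No gene was called in wild types without vehicle replicate 1 or 3 or TAK-418 replicate 2 or 4. The 2 sets of differences were weakly related across 16568 genes, with Pearson's r of 0.145 and a Spearman rank coefficient of 0.152, given as a description. Pearson's r was 0.0444 without vehicle mutant replicate 1 and 0.0695 without vehicle wild-type replicate 3, the libraries with most choroid plexus RNA in those groups. It was 0.0935 without treated mutant replicate 2. These 3 libraries also listed Xist, as did vehicle wild-type replicate 1 and wild-type TAK-418 replicates 2 and 5. The cause of these shifts in r was not tested. Without the choroid plexus genes Pearson's r was 0.132 and the Spearman rank coefficient 0.149. Of the 10 higher genes, 9 also had a positive difference in wild types, and 5 of the 10 lower genes a negative one. The test of the difference between genotypes called 1 gene (0.00604%), Pcdhb13, which entered through the treated mutants alone and is at 0 in all wild types, and 733 had an unadjusted p under 0.05 (4.42%). For Cntnap5c the difference between genotypes was -1.13 (adjusted p = 0.0886) and for Tspan7 -0.41 (adjusted p = 0.193). For Pnck, the log2 difference was 0.40 in mutants and 0.32 in wild types, and between genotypes it was 0.08 (SE 0.09, adjusted p = 0.977).

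**Figure D5:**
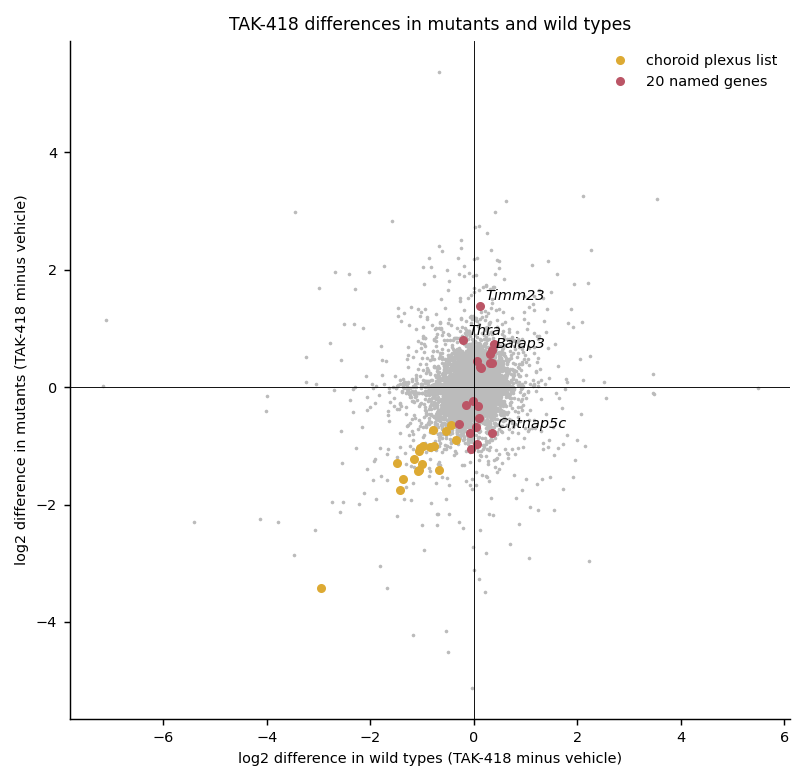
Drug difference (log2) in mutants against the drug difference in wild types for 16568 genes (grey), with the choroid plexus list (yellow) and the 20 named genes (red). All 18 choroid plexus genes lie in the lower left quadrant, where both drug differences are negative.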

How the data were processed

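The genes, lists and tests were chosen with earlier results of these data known. The authors' assemblies, made with CLASS 2.1.7 per the file headers, give every transcript an abundance score on a scale that no source names. The submitters' processing notes name FastQC, TopHat2 2.1.0 and mm10, without roles. The deposited group tables hold 1 value per group and locus, taken as FPKM from their column layout. Here a transcript was assigned to a GENCODE M21 gene through shared introns or, if single-exon, through at least 50% overlap. Abundances were added up per gene and scaled between libraries by median of ratios (13273 genes listed in all 14 libraries). A gene at 0 has no assembled transcript. limma 3.58.1 with a trend was fitted over all 14 libraries to log2(value + 0.882), for genes with a value in 3 or more of them, with Benjamini-Hochberg adjustment and a threshold of 0.05. The pseudocount, the 10th percentile of values above 0, understates changes of low genes. The fit was checked on simulated data. Single measures had exact two-sided permutation tests. Of 28 gene lists, 27 could be tested.

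The rule for named genes took Kmt2d, Kdm1a, called genes, the 10 higher and 10 lower genes described in the results, the most abundant member and the 2 members with the smallest p of each list, and the leading genes and chains listed in 1 mutant group alone; other list members, Pcdhb8 and Snap25 among them, were named after their values were seen. Positions are GRCm38. Alternatives covered scaling, pseudocount, filters, transcript choice, sex, robust fitting and left-out libraries. Overlapping, antisense and near-identical genes are uncertain because no source says how reads common to them were handled. Python 3.11.15 was used.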

Additional observations from a re-analysis of the deposited data

Results flagged for a closer look

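Wild-type TAK-418 replicate 1 lay far from the other 4 treated wild types in 4 of the 25 measures screened. Chance marks about 1 in 20, but these 4 come from 1 library and are not independent, so their number measures no excess over chance. Its relative depth was 168 M (1 M is 1000000) against 40.8 to 56.1 M, it had 48428 assembled transcripts against 33880 to 35896, and 16759 listed genes against 15074 to 15537. Its Timm23 abundance was 44.5 against 21.6 to 22.9.

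The fitted drug difference of Pcdhb13 was larger in mutants than in wild types by 1.62 on the log2 scale. It was above 0 in 3 of 3 treated mutants and 0 in all others, so it passed the filter through the treated mutants alone, the size is set by the pseudocount, and the test is no independent evidence of a difference between genotypes.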

How the results depend on the processing

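No paired analysis was possible because the labels carry no replicate numbers. The numbers used here follow accession order and only name a library. In mutants, the number of genes called, 1 in the results, was 2 with a pseudocount 10 times lower or higher, without the filter or with robust variances (then Pcdhb13 and Tspan7), 3 by abundance times length, 16 over the mutant libraries alone, and 0 over genes in all 14 libraries or multi-exon transcripts. Pcdhb13 was not among the 16, while Dohh, Dgcr2 and Nkx2-1 were, each listed in 1 mutant group alone. Leaving out 1 library gave 1 to 8: 2, 6 and 1 without treated mutant replicates 1 to 3, none including Pcdhb13; 8, 4 and 7 without vehicle mutant replicates 1 to 3, all including it; and 5 and 6 without wild-type TAK-418 replicates 1 and 4. Minar2 had an adjusted p of 0.0234 without vehicle mutant replicate 2 and Ncam1 of 0.0332 without treated mutant replicate 3. Calls on the difference between genotypes numbered 2 without the filter, 3 by abundance times length or robust variances, 0 over genes in all 14 or multi-exon transcripts, and 0 to 7 with 1 library left out; in wild types they numbered 0 to 2. Genes with non-overlapping groups numbered 631 by both measures together (387 higher, 244 lower) and 2624 to 3293 with 1 library left out, where fewer libraries overlap less. Chains called numbered 0 in a separate fit of those in all 6, 129 over the mutant libraries alone and 24 to 70 with 1 left out. Over the mutant libraries alone, a gene or chain listed in only 1 mutant group passes the filter through that group, so such calls are no independent evidence. Of genes in 1 mutant group alone, 4 had a mean of at least the median value. The correlation was 0.188 over genes in all 14 and 0.0444 to 0.171 with 1 left out.

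Signs reversed by abundance times length for Timm23 (-0.90), Thra (-0.0268), Antxr2 (0.11) and Alpk1 (0.15), by the highest transcript for Ncam1 (0.0836), and in the authors' deposited values for Tspan7 (0.0064) and Ncam1 (0.0817). With 1 library left out, Kmt2d ranged from -0.0754 to 0.223, its reversed values being -0.0754, -0.01, -0.03 and -0.02, and Kdm1a from -0.0010 to 0.11. The cause was not tested.

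List medians that moved by more than the spread between libraries were, by library total, LSD1 and CoREST 0.0419 and neural stem 0.0262; by the highest transcript, LSD1 and CoREST 0.0584, neural stem -0.00945, mature granule cells 0.0964 and glutamate receptors -0.145; by multi-exon transcripts, neural stem -0.00743; by abundance times length, neural stem -0.00734, glucocorticoid response -0.0937 and thalamus 0.0507; with 10 times the pseudocount, oligodendrocyte precursors -0.0259. The beta protocadherin median was 1.61 and 0.105 with a pseudocount 10 times lower and higher and 0.00989 without the filter. With 1 mutant library left out, medians ranged from 0.0129 to 0.0547 for LSD1 and CoREST, -0.0209 to -0.00528 for neural stem, -0.00236 to 0.0896 for mature granule cells, -0.0306 to 0.0492 for CA fields, -0.045 to 0.0732 for the clock, -0.112 to -0.0181 for oligodendrocyte precursors, -0.086 to -0.0112 for astrocytes, -0.14 to 0.0506 for interferon response and -0.126 to 0.0235 for thalamus genes. Low genes are limited by depth, since a gene at 0 has no assembled transcript.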
